A study of Rattus norvegicus with 12 samples.

Results

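The genes described here encode gut hormones and the proteins of enteroendocrine cells, the hormone-secreting cells of the intestinal lining, in the duodenal mucosa of rats. The members were 10 genes picked by symbol, namely Gip, Cck, Sct, Ghrl, Sst, Gcg, Pyy, Chga, Chgb and Neurod1. Each had 1 probe among the 22523 of a single-colour Illumina bead array, so 10 of 10 members were measured, of 13337 named genes in all. The samples were 12 arrays of female Sprague Dawley rats of 9 weeks, an outbred strain, at 6 arrays per group. Control rats were kept sedentary in a swimming pool for 2 weeks, and swimming rats, after 1 week of training, swam 1 hour per day on 5 days per week for 2 weeks, in water of 30 to 32 °C. Mucosa scraped from a duodenal segment of 10 cm gave the RNA, which thus came from the whole scraped lining and not from sorted endocrine cells. The design asks whether swimming training changes expression in the duodenal lining.

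Enteroendocrine cells are scattered singly among the absorptive cells and release peptide hormones from dense granules when nutrients reach them. The hormones are not spread evenly along the gut: GIP, cholecystokinin and secretin cells are typical of the duodenum and jejunum, ghrelin cells of the stomach and upper intestine, and cells making proglucagon peptides and peptide YY are most common in the ileum and colon. Granule proteins such as chromogranins, and the transcription factors that specify these cells, are shared by many of the types. In a scraped tissue fewer cells of a type and less RNA per cell cannot be told apart.

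Raw median intensities of the 12 arrays lay between 62.7 and 88.8. Values below are normalized log2 intensities, on which the median probe of the array read 6.36, and a probe near or below that level has little signal above background, so that its differences understate a change in RNA. Levels of different probes are not comparable with each other. The array titled swimming 5 stood apart, with Gata4, a transcription factor of the proximal intestine, at 5.69 against 10.16 to 10.77 in the other 11, and Hoxa7, a positional gene of the hind part of the body, at 10.76 against 5.72 to 6.17. In 3 pairs the arrays were nearly identical, with a smaller spread of log2 differences over bright probes than over dim ones: control 4 with control 6, swimming 4 with swimming 6, and control 3 with swimming 3, which spans the groups. The first 2 of these pairs were each counted as 1 sample in means and SD, which leaves n = 5 per group. The files do not settle whether the tissue label of swimming 5 and the group labels of control 3 and swimming 3 are right, so every swimming minus control value below holds only as far as those labels do. Differences of the members between the groups are therefore given with and without swimming 5.

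Among the members the array swimming 5 read low for Gip, Cck and Sct, hormone genes typical of the upper small intestine, and for Ghrl and Sst. It read high for Gcg and Pyy, typical of the lower gut, and for Chgb. Of the 10 members, 5 lay below and 3 above every other array, where 14.5% and 16.9% of all probes did, and 6 lay outside the range of the other 11 by more than 1 log2, 4 below and 2 above. Over all probes 1.91% lay below and 1.63% above by that margin, 3.55% in all, and 6.86% of the probes brighter than the median probe. With 1 array there is no test of this difference, and the array was already known to stand apart when the genes were chosen, so it is a description.

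**Figure D1:**
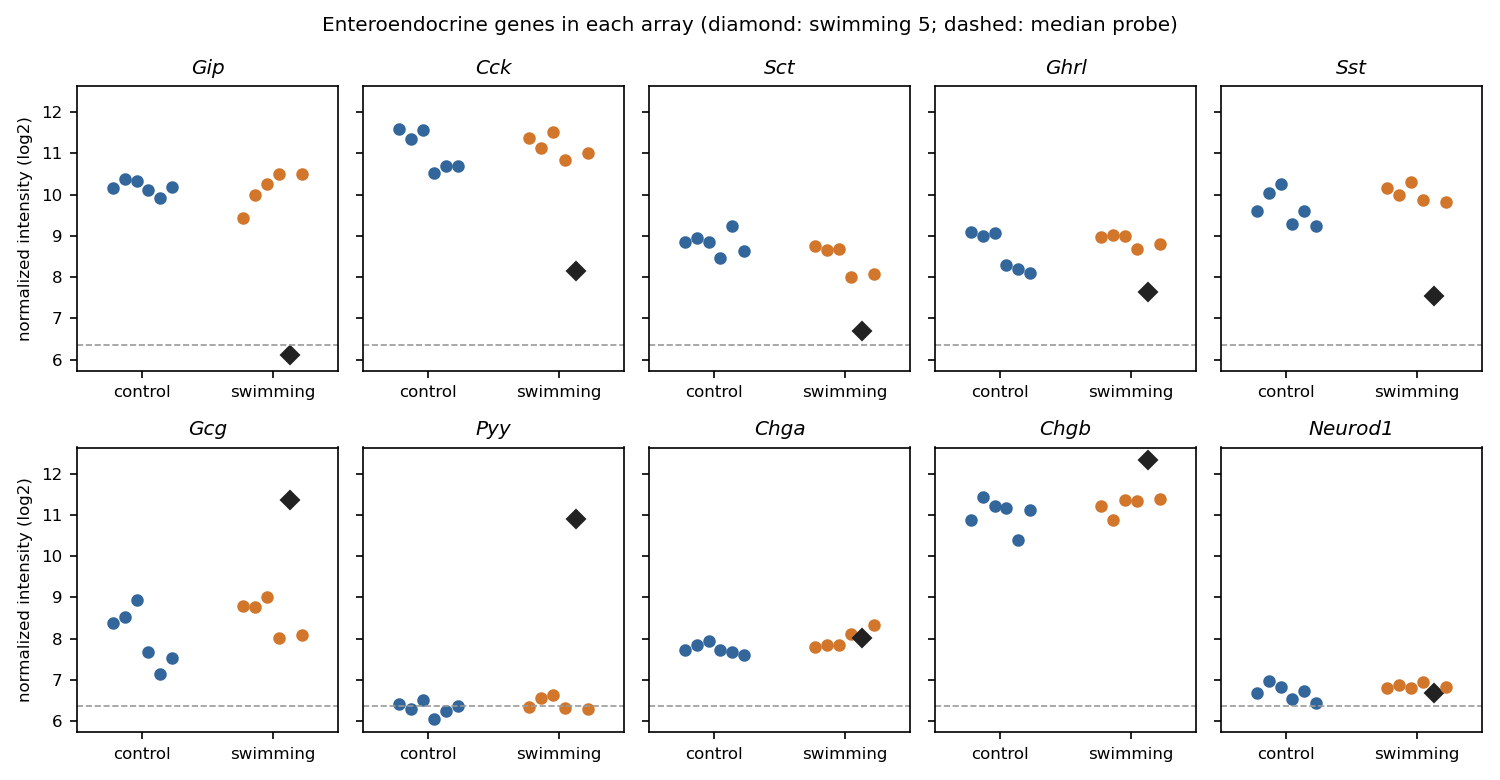
Normalized log2 intensity (vertical axis) of each of the 10 genes in each of the 12 arrays, control in blue and swimming in orange, with the array swimming 5 as a black diamond and the median probe as a dashed line. Gip, Cck, Sct, Ghrl and Sst have their lowest value in swimming 5, while Gcg, Pyy and Chgb have their highest there, and Chga and Neurod1 lie among the other arrays.

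Gip, which encodes the incretin GIP of duodenal K cells, had the widest gap of the low genes. It read 6.11 in swimming 5, below the median probe, and 9.44 at the lowest, 10.18 at the median and 10.50 at the highest of the other 11 arrays. Its difference from their median was -4.07, and the authors' processed intensity, a linear value, was -0.862 in swimming 5 against 793.6 to 1800 elsewhere. Cck, which encodes the hormone of gallbladder contraction and pancreatic secretion, read 8.15 against a lowest of 10.53, a median of 11.12 and a highest of 11.58. On the authors' linear scale Cck was 10.9-fold lower than the median of the others, at 264.4 against 2873. Cck was thus still well above the median probe in swimming 5, while Gip was not.

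Sct encodes secretin, which drives bicarbonate secretion from the pancreas. It read 6.70 in swimming 5 against 8.003, 8.67 and 9.23 at the lowest, median and highest of the others. Sst, the gene of the inhibitory peptide somatostatin of D cells, read 7.54 against 9.25, 9.86 and 10.31. Both lay more than 1 log2 under the lowest of the other arrays. Ghrl, which encodes the appetite hormone ghrelin, read 7.63 against 8.11, 8.98 and 9.09, below all others but by 0.47 only.

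Of the hormone genes typical of the lower gut, Gcg encodes proglucagon, the source of GLP-1 and GLP-2 in L cells. It read 11.37 in swimming 5 and 7.15 at the lowest, 8.38 at the median and 9.01 at the highest of the others. On the authors' linear scale this was 10.5-fold above their median. Pyy, the gene of peptide YY, which is released from L cells and slows gut transit, read 10.91 in swimming 5. In the other 11 arrays it lay between 6.04 and 6.63 around the level of the median probe, and it exceeded that level in 6 of the 12 arrays. Pyy therefore had clear signal in 1 array, swimming 5.

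The remaining members are shared by many endocrine types. Chgb, which encodes the granule protein chromogranin B, read 12.32 in swimming 5 against 10.38, 11.21 and 11.43 at the lowest, median and highest of the others, a gap of 0.89 above the highest. Chga, the gene of chromogranin A, read 8.01 against 7.60, 7.84 and 8.32. Neurod1, a transcription factor of differentiating endocrine cells, read 6.67 against 6.43, 6.81 and 6.96. The last 2 lay within the range of the other arrays, and Neurod1 was near the median probe in all of them.

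Marker lists of the gut segments moved with these genes. The summed linear intensity of 7 measured markers of proximal enterocytes was 16900 in swimming 5 and 76510 to 88920 in the others, and that of 6 measured markers of the large intestine was 38210 against 2220 to 5060. The second sum is mostly Car1, which encodes carbonic anhydrase 1 and read 14.94 against 6.71 to 8.87. Of these 6 markers 4 lay above every other array, 2 of them, Car1 and Hoxa7, by more than 1 log2, while Hoxb13, at 6.16, and Aqp8 lay within the range of the others. Insulin genes, which mark the pancreatic islet, another source of Gcg and Sst, were below the median probe in swimming 5, at 5.98 for Ins1 and 6.07 for Ins2, while the islet list, of which Iapp and Ppy are also among the gut peptides, summed to 651 there against 348 to 576 in the others. The stomach list, another source of Ghrl and Sst, summed to 2940 in swimming 5, within the 903 to 5565 of the other arrays, but this sum is mostly Tff2 at 11.17. Of its 9 markers 5 lay below every other array in swimming 5, among them Gkn1 at 6.01, Tff1 at 7.01 and Pgc at 6.29, and the median difference of the list from the other arrays was -0.61. The part of segment, cell number and treatment in the values of swimming 5 was not tested.

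Upstream sequences of 4 members are shown for the members with the widest gaps in either direction in swimming 5 among those matched, where Gata4 read near background. Promoters of 7 of the 10 members were matched by symbol in the RefSeq table of rat assembly GRCr8, and those of Chga, Sct and Cck were not matched. Each line gives the 250 bases before the annotated start, 5′ to 3′ on the gene's strand. Capitals mark GATA, the core of GATA factor sites, and TTTAT, a core of sites of the intestinal CDX factors, on either strand, so that they also appear as TATC and ATAAA. The 2 motifs overlapped in none of these windows.
Gip: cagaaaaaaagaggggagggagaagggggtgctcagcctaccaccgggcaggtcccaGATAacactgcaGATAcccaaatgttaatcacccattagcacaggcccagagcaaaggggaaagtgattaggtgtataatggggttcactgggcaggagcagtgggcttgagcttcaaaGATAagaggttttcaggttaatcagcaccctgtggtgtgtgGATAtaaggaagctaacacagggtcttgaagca
Sst: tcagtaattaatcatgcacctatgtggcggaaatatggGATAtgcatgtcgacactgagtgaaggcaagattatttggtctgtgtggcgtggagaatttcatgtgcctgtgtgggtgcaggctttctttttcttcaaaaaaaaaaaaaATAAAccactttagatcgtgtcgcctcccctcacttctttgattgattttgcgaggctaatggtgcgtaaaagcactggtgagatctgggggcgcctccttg
Gcg: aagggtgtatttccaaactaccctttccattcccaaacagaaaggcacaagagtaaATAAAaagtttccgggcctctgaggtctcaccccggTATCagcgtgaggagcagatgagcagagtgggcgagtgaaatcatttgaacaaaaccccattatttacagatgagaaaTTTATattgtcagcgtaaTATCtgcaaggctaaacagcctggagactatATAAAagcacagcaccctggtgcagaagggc
Pyy: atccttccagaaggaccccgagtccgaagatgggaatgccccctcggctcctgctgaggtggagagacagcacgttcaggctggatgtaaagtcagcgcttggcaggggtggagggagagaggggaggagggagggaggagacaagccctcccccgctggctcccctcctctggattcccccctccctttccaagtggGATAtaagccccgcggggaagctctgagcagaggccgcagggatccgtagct

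The Gip window is chr10:81464820-81465069 on the plus strand, that of Sst is chr11:90461296-90461545 on the plus strand, that of Gcg is chr3:67531534-67531783 on the minus strand and that of Pyy is chr10:87562471-87562720 on the minus strand. Gip held 4 GATA motifs, from position -193 to -33 before the start, and 0 TTTAT motifs. Gcg held 2 GATA and 3 TTTAT motifs, Sst held 1 of each, and Pyy held 1 GATA and 0 TTTAT. Of the matched members not shown, Ghrl, low in swimming 5, held 2 GATA and 0 TTTAT, Chgb, high there, held 2 and 1, and Neurod1 held 0 of both, so the counts did not separate the low from the high genes. The E-box CANNTG, also searched, was in 6 of the 7 windows and in 65.2% of all promoters. Among 27457 rat promoters of the same length, 55.1% held at least 1 GATA, 4.01% held at least 4, 38.9% held at least 1 TTTAT and 6.10% held at least 3, where 4 and 3 are the counts of Gip and Gcg themselves. A match is a description of letters and does not show binding.

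Other genes of the enteroendocrine system were listed by function, and 84 of 110 were measured. In swimming 5, 4 of the 84 lay more than 1 log2 below the other 11 arrays and 6 more than 1 log2 above, beside the 3.55% of all probes. Of the 84, 44 were brighter than the median probe, and 30 are named here.

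**Figure D2:**
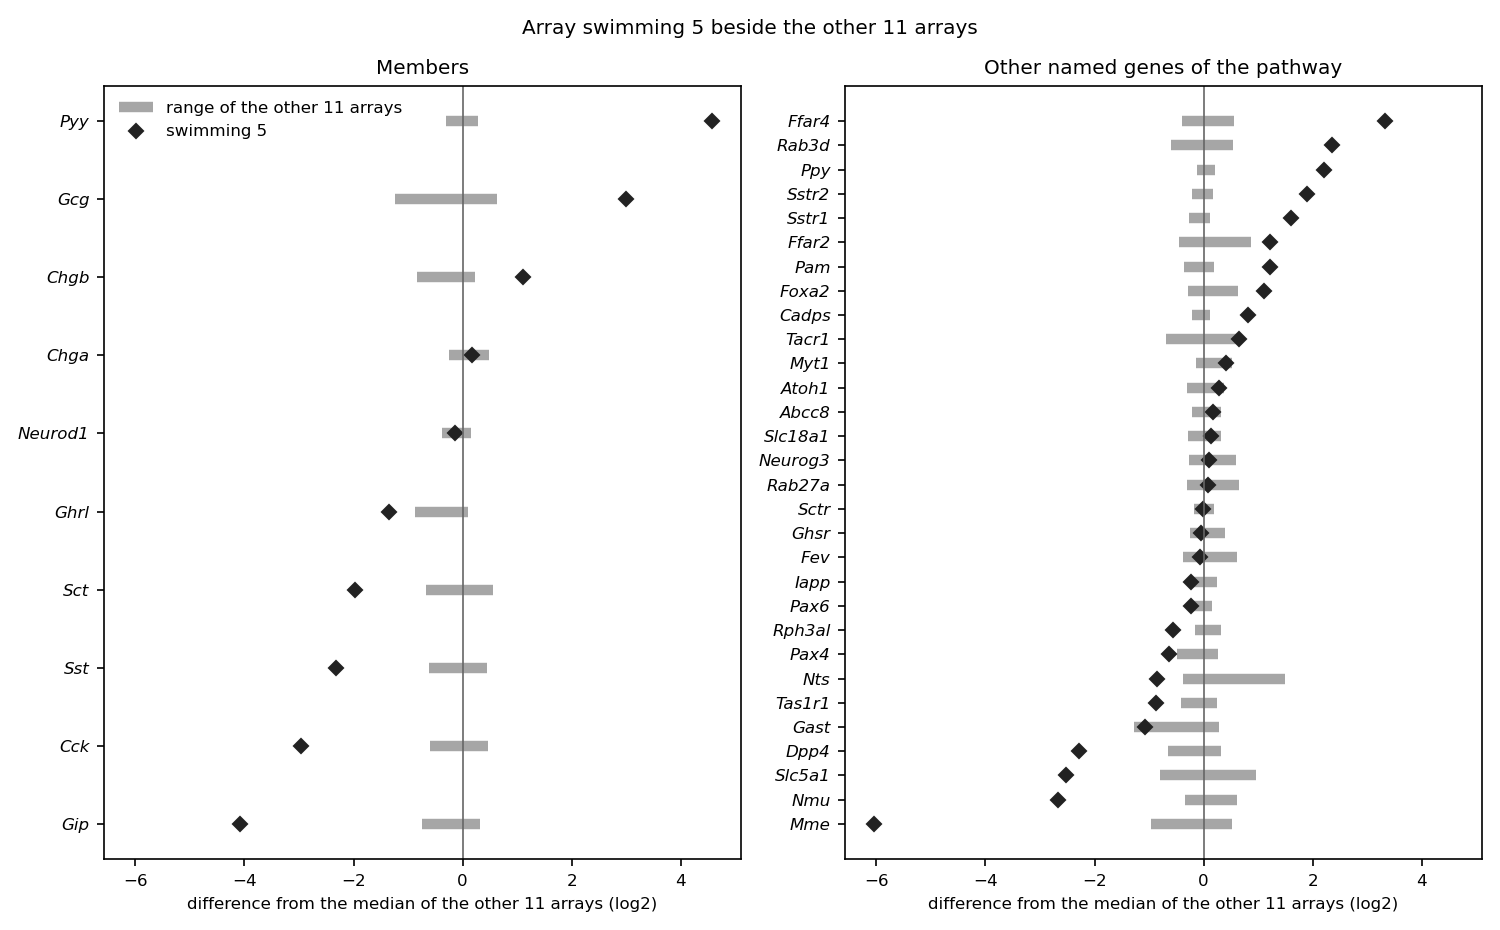
Difference of the array swimming 5 from the median of the other 11 arrays (diamond, log2, horizontal axis) for the 10 members on the left and the 30 named genes of the enteroendocrine system on the right, with the range of the other 11 as a grey bar. Pyy at 4.58 and Gcg at 2.998 are at the top of the members, Gip at -4.07 is at the bottom, and Mme at -6.04 and Ffar4 at 3.33 bound the other genes.

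Among 13 measured genes of other gut peptides and amine synthesis, Nmu and Ppy stood outside by that margin. Nmu, which encodes the smooth muscle-contracting peptide neuromedin U, read 9.37 in swimming 5 against 11.69 to 12.64. Ppy, the gene of pancreatic polypeptide, read 8.40 in swimming 5 against 6.08 to 6.41 in the others, where it was near the median probe. Nts, which encodes neurotensin, read 6.67 against 7.16 to 9.02, and Gast, the gene of gastrin, read 6.53 within the 6.33 to 7.88 of the other arrays. Iapp, which encodes amylin, read 6.60 against 6.59 to 7.08.

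Of 22 genes of granules and prohormone processing, 0 lay below and 2 above by more than 1 log2. Rab3d, a small GTPase of secretory granules, read 11.83 against 8.88 to 10.02. Pam, the enzyme that amidates peptide hormones, read 9.58 against 7.99 to 8.55. Of 15 transcription factors of the lineage, 0 lay outside by that margin in either direction. Neurog3, the factor that starts the endocrine lineage, read 6.71 in swimming 5 within the 6.34 to 7.21 of the others, and Pax4, a factor of endocrine subtypes, read 6.72 against 6.86 to 7.61.

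Of 14 sensing genes 1 lay below and 1 above the other arrays by more than 1 log2 in swimming 5, and of 20 receptors and degrading enzymes 2 lay below and 2 above. Ffar4, a receptor for long-chain fatty acids, read 10.87 against 7.14 to 8.10, and Ffar2, a receptor for short-chain fatty acids, read 8.01 against 6.34 to 7.66. Slc5a1, the sodium-glucose cotransporter of the brush border, read 6.26 against 7.97 to 9.73. The somatostatin receptor genes Sstr1 and Sstr2 read 8.02 and 8.62 against highest values of 6.53 and 6.89. Among enzymes that degrade gut peptides Mme, neprilysin, was at 6.40 against 11.48 to 12.97 and Dpp4, which inactivates GIP and GLP-1, was at 7.31 against 8.94 to 9.91.

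Between swimming and control rats no member passed the test. limma, a moderated linear model fitted on all 22523 probes, called 0 of the 10 members and 0 of all probes (0%) at an adjusted p under 0.05, with adjusted p of 0.911 to 0.988 for the members. At an unadjusted p under 0.05 there were 2 members, Chga and Sct, against 1076 probes or 4.78% of all. Swimming and control arrays overlapped in 10 of 10 members, where 0.182% of all probes had groups that did not overlap. Of the members 6 read higher and 4 lower on average, with a median difference of 0.093, beside 49.4% of all probes higher and a median of -0.0015.

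**Figure D3:**
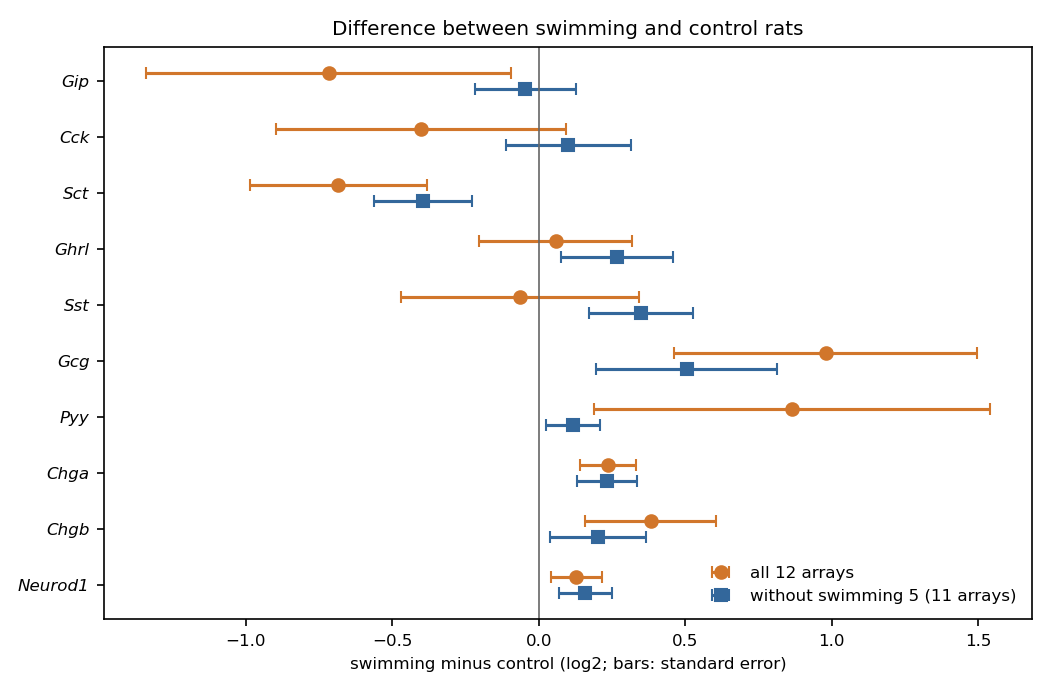
Difference in mean log2 intensity between swimming and control rats with its standard error (horizontal axis), for each of the 10 genes with all 12 arrays (orange circles) and without swimming 5 (blue squares). Chga moves from 0.24 to 0.23, while Gip moves from -0.72 to -0.045 and Sst from -0.064 to 0.35 when swimming 5 is left out.

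Sct read 8.47 at the lowest, 8.84 at the median and 9.23 at the highest of the control arrays, and 6.70, 8.36 and 8.75 in the swimming arrays. All 6 swimming arrays lay under the control mean, and the groups overlapped. The means were 8.88 ± 0.24 and 8.16 ± 0.87 (SD, n = 5 each). Over all 12 arrays, taken as separate, the fitted difference was -0.68 (SE 0.30, limma adjusted p = 0.911), with an unadjusted exact permutation p of 0.0433, two-sided. With the near-identical pairs within groups averaged it was -0.72 (SE 0.36, limma unadjusted p = 0.0732). Without swimming 5 the difference was -0.40 (SE 0.17, limma adjusted p = 0.891).

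Chga read 7.60, 7.72 and 7.95 at the lowest, median and highest in control and 7.79, 7.93 and 8.32 in swimming rats. The 3 highest arrays of the 12 were swimming 4, 5 and 6, of which swimming 4 and 6 are nearly identical. The means were 7.77 ± 0.13 and 7.94 ± 0.18 (SD, n = 5 each). Over all 12 arrays, taken as separate, the fitted difference was 0.24 (SE 0.096, limma adjusted p = 0.911, exact permutation p = 0.0368, two-sided). It was 0.23 without swimming 5. With the near-identical pairs within groups averaged it was 0.17 (SE 0.095, limma unadjusted p = 0.102), and 0.15 when swimming 5 was also left out. The exact tests assign 12 arrays in 924 ways and treat near-identical arrays as separate.

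Chgb read 10.38, 11.15 and 11.43 at the lowest, median and highest in control and 10.88, 11.34 and 12.32 in swimming rats. The difference was 0.38 (SE 0.22) with all arrays and 0.20 (SE 0.16) without swimming 5. Neurod1 read 6.43, 6.71 and 6.965 in control and 6.67, 6.82 and 6.957 in swimming rats, and differed by 0.13 (SE 0.087), and by 0.16 without swimming 5. Both had 5 of 6 swimming arrays above the control mean.

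The upper intestinal hormones Gip and Cck turned on swimming 5. Gip read 9.91, 10.17 and 10.39 at the lowest, median and highest in control and 6.11, 10.12 and 10.50 in swimming rats. Its difference was -0.72 (SE 0.62), and -0.045 (SE 0.17) without swimming 5. Cck read 10.53, 11.02 and 11.58 in control and 8.15, 11.07 and 11.51 in swimming rats, and differed by -0.40 (SE 0.49), which turned to 0.10 (SE 0.21) without swimming 5. For both genes the medians of the groups were within 0.1 log2 of each other.

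Sst read 9.25, 9.60 and 10.26 at the lowest, median and highest in control and 7.54, 9.92 and 10.31 in swimming rats. The difference was -0.064 (SE 0.41) with all arrays, 0.095 under median scaling and 0.35 (SE 0.18, limma adjusted p = 0.891) without swimming 5. Ghrl read 8.11, 8.64 and 9.09 in control and 7.63, 8.89 and 9.01 in swimming rats, and differed by 0.058 (SE 0.26), and by 0.27 (SE 0.19) without swimming 5. Direction could therefore not be settled for either gene.

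Gcg read 7.15, 8.02 and 8.93 at the lowest, median and highest in control and 8.02, 8.78 and 11.37 in swimming rats. Its difference was 0.98 (SE 0.52), the largest of the 10, and 0.50 (SE 0.31) without swimming 5, with limma adjusted p of 0.911 and 0.891. In both fits it missed the unadjusted threshold too. Pyy read 6.04, 6.33 and 6.50 in control and 6.30, 6.45 and 10.91 in swimming rats, and differed by 0.86 (SE 0.68), and by 0.12 (SE 0.093) without swimming 5.

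Without swimming 5 limma called 0 of the 10 members and 0% of all probes, with 2 members and 1137 probes (5.05%) at an unadjusted p under 0.05. Of the members 8 then read higher and 2 lower, with a median difference of 0.18, beside a median of -0.0033 over all probes. The share of all probes reading higher in that fit was not counted, so the 8 have no background to be read against. A restricted comparison left out swimming 5 and the pair that spans the groups and averaged the pairs within groups. In it limma found 0 members at an unadjusted p under 0.05, against 737 probes (3.27%), with Sct at -0.41 (SE 0.21), Chga at 0.23 (SE 0.12), Gcg at 0.62 (SE 0.35) and Sst at 0.36 (SE 0.18).

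Of the 84 other genes of the enteroendocrine system, limma called 0, with 1 at an unadjusted p under 0.05, beside 4.78% of all probes. Without swimming 5 it called 0 as well, with 3 at an unadjusted p under 0.05, beside 5.05% of all probes. With all 12 arrays 50 read higher on average and 34 lower, with a median difference of 0.023, beside 49.4% of all probes higher and a median of -0.0015. By list, 11 of 13 genes of other peptides and amine synthesis read higher, 15 of 22 of granules and processing, 9 of 15 transcription factors, 4 of 14 sensing genes and 11 of 20 receptors and degrading enzymes. Only 6, 14, 8, 6 and 10 genes of these lists, in the same order, were brighter than the median probe, so many of these directions rest on dim signal. Medians of the lists lay between -0.028 and 0.063.

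With all 12 arrays the gene with an unadjusted p under 0.05 was Tas1r1, a subunit of the amino acid taste receptor. It read 6.70, 7.29 and 7.35 at the lowest, median and highest in control and 6.24, 6.87 and 7.11 in swimming rats, and differed by -0.38 (SE 0.15, limma adjusted p = 0.911). Its lowest value was that of swimming 5, without which the difference was -0.26. Neurog3 differed by 0.27 (SE 0.14), Fev, a factor of serotonin-producing cells, by 0.24 (SE 0.14), Slc18a1, a monoamine transporter of granules, by 0.15 (SE 0.087) and Ghsr, the ghrelin receptor, by -0.18 (SE 0.092). Without swimming 5 these 4 differences were 0.29, 0.29, 0.15 and -0.17 in the same order. None of these genes passed.

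Among the 11 arrays other than swimming 5, Ghrl, Cck and Gcg each had their 3 lowest values in control 4, 5 and 6. Ghrl read 8.30, 8.21 and 8.11 in control 4, 5 and 6 and 8.69 to 9.09 in the other 8. Gcg read 7.66, 7.15 and 7.52 in the same controls and 8.02 to 9.01 elsewhere, and Cck read 10.53, 10.70 and 10.69 against 10.83 to 11.58. Control 4 and control 6 are nearly identical, so these are 2 separate low profiles.

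**Figure D4:**
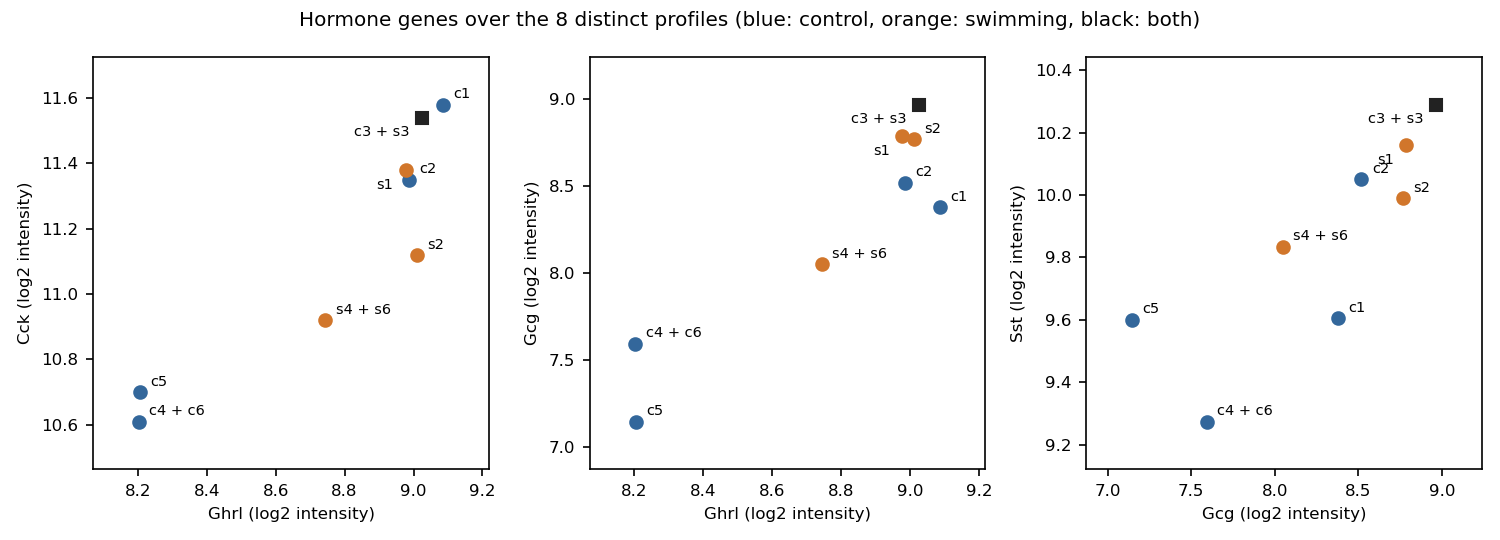
Log2 intensity of pairs of hormone genes over the 8 distinct profiles, in which near-identical arrays are averaged and swimming 5 is left out (c: control, s: swimming, blue, orange or black for control, swimming or both). Control 5 and the averaged control 4 and control 6 lie at the lower left for Ghrl with Cck and for Ghrl with Gcg, and the other 6 profiles lie above them.

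Correlations were computed for the 45 pairs of members over 8 distinct profiles, with swimming 5 left out and near-identical arrays averaged. Of these 1 passed after Benjamini-Hochberg adjustment over the 45 by Pearson's r and 0 by Spearman's rho. For Cck with Ghrl Pearson's r was 0.92 (exact permutation p = 0.000918, adjusted p = 0.0413) and Spearman's rho was 0.90 (exact permutation p = 0.00456, adjusted p = 0.103). For Cck with Gcg r was 0.84 (exact permutation p = 0.00975, adjusted p = 0.146) and rho was 0.71 (exact permutation p = 0.0576, adjusted p = 0.324), which did not pass, and r was 0.51 without the 2 farthest profiles (exact permutation p = 0.301). For Cck with Ghrl, without the 2 profiles farthest from the median of Cck, those of control 5 and of control 4 and 6, r was 0.84 over 6 profiles (exact permutation p = 0.0264, not adjusted).

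For Gcg with Ghrl r was 0.92 (exact permutation p = 0.00454, adjusted p = 0.102) and rho was 0.67 (exact permutation p = 0.0831, adjusted p = 0.340). It fell to 0.64 over the 6 profiles left without those of control 5 and of control 4 and 6 (exact permutation p = 0.174). For Sst with Gcg r was 0.82 (exact permutation p = 0.0131, adjusted p = 0.147), rho was 0.93 (exact permutation p = 0.00223, adjusted p = 0.1004), and r was 0.74 without the 2 farthest profiles (exact permutation p = 0.0694). Gip showed no such relation here, with r of -0.051 with Gcg and 0.055 with Ghrl, though under median scaling these were 0.49 and 0.60. Under median scaling 10 of 45 pairs passed by Pearson's r and 45 of 45 were positive, against 35 with quantile normalization.

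Markers listed for neighbouring tissues were summed in the same arrays. The 9 measured stomach markers summed to 1225, 903 and 1250 in control 4, 5 and 6, the lowest 3 arrays, and to 1789 to 5565 in the other 8. Within those 8 the stomach sum did not follow Ghrl throughout, being lowest in swimming 2, where Ghrl read 9.01. Of this list 6 markers were brighter than the median probe, while the acid pump genes Atp4a and Atp4b and Cblif, intrinsic factor, were not. Tff2, bright enough to weigh heavily in a linear sum, read 7.41 to 11.84 in the 11 arrays, so the sum alone does not show stomach tissue. It differed between swimming and control rats by 1.46 (SE 0.52, limma adjusted p = 0.911), the largest difference of the list. Gast, the antral hormone gene and a member of the stomach list, read 7.18 in the averaged profile of control 4 and 6 and 6.33 in control 5, against 7.27 to 7.85 in the other 6 profiles. Islet markers summed to 576 and 575 in control 3 and swimming 3, which are nearly identical and so are 1 profile. Gcg and Sst were highest there among the 11 arrays. The islet sum was 348 to 436 in the remaining arrays apart from swimming 5. It was 418.5 in swimming 1, where Gcg read 8.785 and Sst 10.16. Of the 5 islet markers Ins1, Ins2 and Slc30a8 were below the median probe on average, though Ins1 read 7.39 and 7.61 in control 3 and swimming 3. Exocrine pancreas markers summed to 10580 and 10450 in control 3 and swimming 3 and to 24300 in swimming 2, against 1439 to 2971 in the other arrays. Of these 11 markers 10 read higher in swimming than in control rats on average, beside 49.4% of all probes. They mark 1 tissue, and the highest sum was that of 1 array, swimming 2, so the count is not one of independent genes. Their median difference was 0.78, and 1.01 without swimming 5. For these markers limma called 0, with 1 at an unadjusted p under 0.05, beside 4.78% of all probes. The part of these tissues in the hormone values was not tested.

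Array brightness was also low in control 4, 5 and 6, but not in these alone. Raw mean intensities were 439.8 to 517.5 in control 4, 5 and 6 and 411.5 in swimming 6, against 621.4 to 796.3 in the other arrays. In swimming 6, the dimmest array, Ghrl read 8.80, Cck 11.02 and Gcg 8.075, each above its values in those controls. Swimming 5 aside, each was below its values in all arrays other than swimming 4 and those controls. In swimming 4, nearly identical to swimming 6 but with a raw mean of 742.8, Ghrl read 8.69, Cck 10.83 and Gcg 8.02. The part of brightness in the hormone values was not tested. Enteric nerve markers, another source of Cck and Sst transcripts, summed to 572 to 637 in the 11 arrays, and Vip, Elavl3, Ret, Uchl1, Prph and Chrna3 were below the median probe.

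The genes most like each member over the 8 profiles were taken as the 3 with the highest Pearson's r, as a description without a test since they are the extremes of all named genes brighter than the median probe. For Gcg they were Nptn (r = 0.99), Fabp4 (0.98) and Slc25a5 (0.96), and for Sst they were Acy1 (0.97), Mme (0.96) and Ube4b (0.95). Cck was closest to Vamp8, Cldnd1 and Flywch1 (0.94 for each), and Ghrl to RT1-A2, Tmem19 and Cr1l (0.97 for each). For Chgb they were Med1, Smc3 and Rarb, with r of 0.96 to 0.97. In swimming 5 Nptn read 10.18 against a median of 10.51 in the others, while Gcg was 2.998 log2 higher there, whereas Mme and Acy1 read low together with Sst, at 6.40 and 8.06 against medians of 12.44 and 10.46.

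Sct was closest to Tyrp1 (0.98), Letm1 (0.97) and Limk1 (0.93), of which Tyrp1 was at the level of the median probe. Pyy, itself near the median probe in these arrays, was closest to Gdpd2, App and Bst1, with r of 0.95 to 0.96. Neurod1 was closest to Odc1 (0.96), Prpf8 (0.95) and Emc10 (0.94), Chga to Krtap1-5 (0.90), Cd59b (0.88) and Enpp7 (0.86), and Gip to Hsp90ab1 (0.92), Stx3 (0.91) and Pgap1 (0.88).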

How the data were processed

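Both deposited tables were used. The raw table holds the average signal of each of 22523 probes on 12 arrays, an intensity on a linear scale that was not background-subtracted, per the file headers and its values. The second holds the authors' processed intensities, with 26.2 to 26.3% of values below 0 and a median of 16.0 in every array. Their background subtraction and scaling are stated in none of the sources. No detection p-values are given.

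Raw intensities were corrected with normexp (offset 50), quantile-normalized and put on a log2 scale, and swimming minus control was fitted on all probes with limma 3.58.1 in R 4.3.3 (lmFit and eBayes, two-sided), with Benjamini-Hochberg adjustment over all probes. The fit was tested on simulated data. Groups came from the sample titles. 13793 probes have a gene symbol in the platform annotation, which is old, and a gene is represented by its brightest raw probe. The fit treats near-identical arrays as separate. The number of arrays limits the precision, and no label ties an array to an animal, so p-values measure the spread between these samples.

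The members, lists and tests were chosen with earlier results of these data known. Named genes were the members, up to 4 genes per list with the largest difference in swimming 5 and up to 3 with the smallest p, all brighter than the median probe, and the 3 genes most like each member, symbols starting with LOC or RGD left out. Alternatives were other background corrections and normalizations, the processed table floored at its median, a filter on dim probes, other variance models, a replicate block and leaving out or averaging arrays. The columns carry no slide and each member has 1 probe, so slide and probe alternatives could not be run. Same-numbered arrays did not pair throughout. The correlation of their deviations was 0.73 for number 3, whose arrays are the near-identical control 3 and swimming 3, and -0.025 to 0.25 for the other numbers.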

Additional observations from a re-analysis of the deposited data

Results flagged for a closer look

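Values far from the rest of their group of 6 arrays were looked for in the 10 members and 30 other named genes. By Dixon's ratio 24 of 80 groups' extremes stood out, 20 of them in swimming 5, where chance flags about 1 in 20 groups. The count cannot be read against that rate, because up to 4 genes per list were named for their difference in swimming 5 and the members were chosen with that array known, and 1 array gives most of these values.

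In swimming 5 the members that stood apart from the other swimming arrays were Chgb at 12.32 (nearest 11.39), Sct at 6.70 (8.003), Cck at 8.15 (10.83), Gip at 6.11 (9.44), Sst at 7.54 (9.81), Gcg at 11.37 (9.01), Pyy at 10.91 (6.63) and Ghrl at 7.63 (8.69). Other genes that stood high there were Cadps, a factor of granule release, at 7.155, Ffar4 at 10.87, Pam at 9.58, Ppy at 8.40, Rab3d at 11.83, Sstr1 at 8.02 and Sstr2 at 8.62. Genes that stood low were Dpp4 at 7.31, Mme at 6.40, Nmu at 9.37, Slc5a1 at 6.26 and Tas1r1 at 6.24.

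Among control arrays Ffar2 at 7.66 and Rab27a, a GTPase of granule transport, at 7.56 were high in control 5, and Sstr1 at 6.14 was low there. Tas1r1 was low in control 2, at 6.70 against 7.24 in the nearest control.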

How the results depend on the processing

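limma called 0 probes, 0 members and 0 other genes of the enteroendocrine system under every alternative run. Fits of all 22523 probes had 556 to 1658 at an unadjusted p under 0.05, and the fit of the 11261 probes brighter than the median probe had 458. Of 80 member values under the 8 alternatives that can change a difference, leaving out 1 array aside, 74 kept their direction and 6 turned, and of 120 values with 1 array left out 110 kept it and 10 turned. Cck (-0.40) turned to 0.082 in the restricted comparison and to 0.071 with pairs averaged and swimming 5 left out, an alternative chosen after seeing the data. Sst (-0.064) turned to 0.095 under median scaling, 0.36 in the restricted comparison and 0.32 with pairs averaged and swimming 5 left out. Ghrl (0.058) turned to -0.039 with pairs within groups averaged. With 1 array left out Cck lay between -0.57 and 0.10, Ghrl between -0.046 and 0.27, Sst between -0.20 and 0.35, Gip between -0.92 and -0.045, Pyy between 0.12 and 1.04, Gcg between 0.50 and 1.17, Sct between -0.81 and -0.40, Chgb between 0.20 and 0.49, Chga between 0.17 and 0.28 and Neurod1 between 0.075 and 0.18. Cck turned without swimming 5, Sst without swimming 5, control 2 or control 3, and Ghrl without control 4, 5 or 6 or swimming 1, 2 or 3. With the replicate block 1052 probes had an unadjusted p under 0.05, the smallest adjusted p was 0.864 and 0 members were called, so it changed no call. The count of correlated pairs was 1 with quantile normalization and 10 under median scaling, and the cause was not tested. Members outside the range of the other arrays by more than 1 log2 in swimming 5 numbered 6 under quantile normalization, 5 under median scaling and 6 in the processed table. Dim signal limits Pyy in 11 arrays and Gip in swimming 5.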
